A study of Arabidopsis thaliana with 11 samples.

Results

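The root tips of crn-3 and cle40-2 plants of Arabidopsis thaliana were compared directly with each other, over 5 of the 11 libraries of the study: 2 labelled crn-3 and 3 labelled cle40-2. The other libraries, 3 of clv2-gabi and 3 of wild-type Col-0, are used only for orientation. The labels name 1 mutated gene per line, CORYNE (CRN) for crn-3, CLE40 for cle40-2 and CLAVATA2 (CLV2) for clv2-gabi, give Col-0 as the background of all and do not say what an allele does to its gene. All 4 groups were raised alike: upright plates at 21 °C in continuous light, with Murashige and Skoog salts (2.2 g/l), 0.5 g/l of the buffer MES and, as sugar, 10 g/l sucrose, and total RNA of root tip tissue was sequenced. The labels do not tell plant age, how much of the root was cut or whether the libraries of a group came from separate cultures.

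CLE40 is a small secreted signalling peptide, made in differentiating cells of the root tip, that limits the stem cells around the quiescent centre. CRN is a membrane protein with a kinase-like domain that reaches the cell surface together with CLV2, a receptor-like protein that lacks a kinase of its own, and the pair is known for making the root respond to CLE peptides. The study asks how the CLE40 signal and the CRN and CLV2 signal relate in the growing root, and setting crn-3 against cle40-2 shows which transcripts lie at different levels in the 2 mutants.

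The files hold 1 mean per group and gene, in normalised read counts, so no value per library, standard deviation or test of the direct difference could be had, and depth per library is unknown. The crn-3 column was multiplied by 1.08, which brings the Col-0 sums of the 2 tables to the same total. The change of a gene is log2((crn-3 + 1) / (cle40-2 + 1)), negative where crn-3 is lower, and a gene counted as different where the ratio was at least 2-fold. Of 28495 genes, 15892 were compared: 12491 had an average of the 2 groups under 50, and a run of 112 loci on chromosome 3, AT3G16170 to AT3G17185, was left out, 70 of them above that minimum. Every difference below is therefore one between 2 group means with no replicate check, read against the spread of all genes. Levels follow the authors' counts per gene and are compared between groups, not between genes.

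In crn-3, 125 genes were at least 2-fold higher than in cle40-2 (0.787% of those compared) and 212 were at least 2-fold lower (1.33%). The median change was 0.01, and the central 95% of all genes ran from -0.73 to 0.59. That range narrowed with the level, from -1.42 to 0.98 at averages of 50 to 200, over -0.56 to 0.51 at 200 to 1000, to -0.39 to 0.37 at 1000 and above. It holds real differences as well as error. Of the 2-fold differences, 77 higher and 163 lower genes had averages under 200, so most lie where the range of all genes is widest. The groups also differed in nuclear photosynthesis genes, a sign of green tissue, summed to 1610 in crn-3 and 4895 in cle40-2, and in seed storage genes, summed to 17.3 in crn-3 and 566 in cle40-2. Their part in the results below was not tested. Just past the 2-fold line lay PSBO1, a photosystem gene, at 64.0 in crn-3 and 129 in cle40-2, and just short of it the aquaporin gene PIP1A, at 906 in crn-3 and 1812 in cle40-2.

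**Figure D1:**
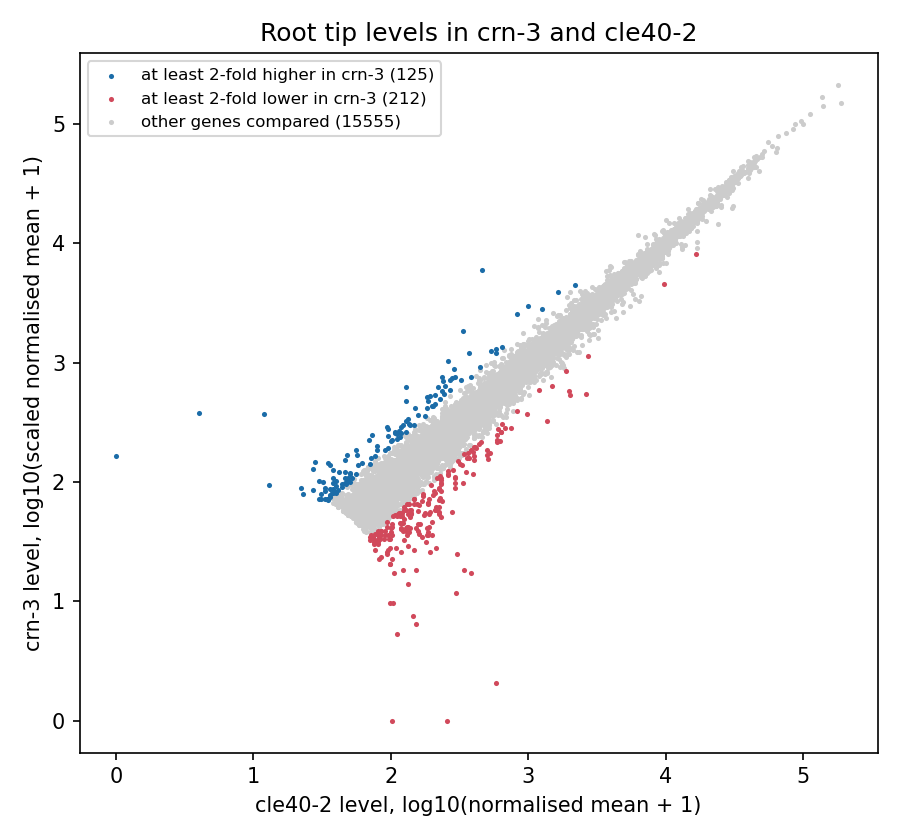
Level of each of the 15892 genes compared in crn-3 (vertical axis, scaled) against cle40-2 (horizontal axis), both as log10 of the normalised mean plus 1. Blue points are the 125 genes at least 2-fold higher in crn-3, red points the 212 at least 2-fold lower, grey points the rest; the lower left is empty because genes averaging under 50 were not compared.

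Neither CRN nor CLE40 marked its own mutant. CRN (AT5G13290, TAIR10.1 chromosome 5, 4252842 to 4255378) had a level of 120 in crn-3, against 98 in cle40-2 and 98 in Col-0. CLE40 (AT5G12990, chromosome 5, 4109234 to 4109784) stood at 1.08 in crn-3, 3 in cle40-2 and 1 in Col-0, too low to check a label. CLV2 (AT1G65380) lay at 223 in crn-3 and 248 in cle40-2, and at 4270 in clv2-gabi against 199 in Col-0. CLV2 thus stood apart in clv2-gabi, while the crn-3 and cle40-2 labels have no such check and the direction of each difference between them rests on the labels. Genes expressed in the root tip were present in both mutants: SMB, a root cap regulator, at 782 in crn-3 and 661 in cle40-2, and PLT1, a regulator of the stem cell niche, at 1083 in crn-3 and 1009 in cle40-2.

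At least 2-fold lower in crn-3 than in cle40-2 were 4 of 17 root hair genes and 11 of 16 extensin and proline-rich protein genes. Over all genes compared the share was 1.33%. Root hairs are outgrowths of epidermal cells whose walls are built from extensins and proline-rich proteins, loosened by expansins and crosslinked by peroxidases, and many such genes are known to carry a shared promoter element, the root hair element, close to their start. A simplified core of that element was searched on both strands of the 250 bases before each gene start, as TGNNNNCACG or TGNNNNNCACG. The following 7 windows belong to genes that were at least 2-fold lower in crn-3 and show the matches in capitals, from the first base of the window to the base before the gene start, in TAIR10.1 coordinates and read from the RefSeq genome.
EXT13 (chr5:13433901-13434150, + strand): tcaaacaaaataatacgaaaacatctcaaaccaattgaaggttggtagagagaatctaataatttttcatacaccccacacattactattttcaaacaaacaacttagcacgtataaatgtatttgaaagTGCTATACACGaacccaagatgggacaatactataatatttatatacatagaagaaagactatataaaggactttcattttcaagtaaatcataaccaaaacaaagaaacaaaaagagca
EXT10 (chr5:2041929-2042178, - strand): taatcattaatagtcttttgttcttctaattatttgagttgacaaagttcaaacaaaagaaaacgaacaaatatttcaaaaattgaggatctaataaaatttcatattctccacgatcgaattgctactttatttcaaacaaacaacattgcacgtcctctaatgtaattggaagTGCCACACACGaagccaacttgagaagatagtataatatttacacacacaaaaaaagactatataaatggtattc
PRP3 (chr3:23182472-23182721, + strand): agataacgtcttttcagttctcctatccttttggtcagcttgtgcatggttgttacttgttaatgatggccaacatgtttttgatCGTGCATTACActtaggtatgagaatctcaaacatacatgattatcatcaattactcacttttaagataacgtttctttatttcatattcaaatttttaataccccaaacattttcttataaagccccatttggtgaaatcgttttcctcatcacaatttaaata
LRX1 (chr1:4069742-4069991, + strand): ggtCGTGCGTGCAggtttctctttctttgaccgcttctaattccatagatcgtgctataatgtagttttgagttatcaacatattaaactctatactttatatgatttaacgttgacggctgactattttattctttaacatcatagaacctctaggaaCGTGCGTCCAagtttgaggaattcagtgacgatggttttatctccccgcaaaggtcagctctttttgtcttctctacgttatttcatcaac
EXPA7 (chr1:4276255-4276504, + strand): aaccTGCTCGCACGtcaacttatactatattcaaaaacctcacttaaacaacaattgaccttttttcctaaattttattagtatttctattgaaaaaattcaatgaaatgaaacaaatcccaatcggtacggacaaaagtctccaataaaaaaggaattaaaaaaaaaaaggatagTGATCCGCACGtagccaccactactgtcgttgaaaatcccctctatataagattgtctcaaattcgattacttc
ROPGEF4 (chr2:18883127-18883376, + strand): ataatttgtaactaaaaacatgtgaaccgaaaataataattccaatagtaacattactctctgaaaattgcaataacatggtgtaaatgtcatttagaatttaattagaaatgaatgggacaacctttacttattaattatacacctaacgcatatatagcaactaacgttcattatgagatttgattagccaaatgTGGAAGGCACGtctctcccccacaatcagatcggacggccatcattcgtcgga
XTH14 (chr4:13130041-13130290, + strand): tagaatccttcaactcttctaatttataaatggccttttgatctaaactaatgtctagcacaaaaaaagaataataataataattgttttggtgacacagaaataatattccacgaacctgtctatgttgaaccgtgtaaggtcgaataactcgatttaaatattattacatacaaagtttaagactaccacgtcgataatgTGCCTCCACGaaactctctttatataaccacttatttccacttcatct
The match in EXT13 begins 120 bases before the gene start, that in EXT10 75 bases and that in XTH14 48 bases before it. LRX1 and EXPA7 hold 2 matches each. On the strand shown, those of LRX1 and PRP3 read as the reverse complement.

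Of all 15828 promoters of compared genes that could be read, 1465 held the core (9.26%). It was found in 42 of 210 promoters of the genes at least 2-fold lower in crn-3 (20.0%) and in 11 of 125 of the genes at least 2-fold higher (8.80%). Among extensin and proline-rich protein genes, 12 of 16 promoters held it, 10 of 11 for the members at least 2-fold lower. Of the root hair list 4 of 17 held it, and these were the 4 members at least 2-fold lower, of which PRP3 and LRX1 belong to both lists. Among these 4, PRP3, EXPA7 and ROPGEF4 reached the minimum average only through cle40-2. Among the genes named RHS, for root hair specific, 2 of 4 promoters held it and 1 of the 3 lower members did, RHS19. Of the class III peroxidase promoters 5 of 31 held it, 3 of 10 for the lower members, and none of the 5 lower Casparian strip genes did. The letters CACG also occur in other elements such as the G-box, and some of these promoters are near copies of each other, so the counts describe these windows and do not show binding.

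EXT13 (AT5G35190, chromosome 5, 13434151 to 13435424), an extensin gene, had a level of 55.3 in crn-3, against 278 in cle40-2, 54.3 in clv2-gabi and 103 in Col-0, which makes crn-3 4.96-fold lower than cle40-2. The crn-3 and clv2-gabi means lay side by side below Col-0, and cle40-2 stood above it. In the authors' deposited tables its fold change over Col-0 was 0.54 in crn-3 (adjusted p = 0.256) and 2.69 in cle40-2 (adjusted p of 0). EXT10 (AT5G06640) lay at 33.6 in crn-3 and 166 in cle40-2, with 34.2 in clv2-gabi and 43 in Col-0. EXT6 (AT2G24980) lay at 53.1 in crn-3 and 222 in cle40-2, but only 60.0% of its 50-base windows are unique in the genome. Of the 30 extensin and proline-rich protein genes in the tables, 16 were compared and 11 were at least 2-fold lower in crn-3, none higher. Their median change was -1.28, against 0.01 over all genes compared, of which 1.33% were at least 2-fold lower. Several members reached the minimum average through cle40-2 and so had to differ. Summed over all 30, the level was 54266 in crn-3, 87949 in cle40-2, 46854 in clv2-gabi and 65765 in Col-0. Even abundant members differed, with AT2G43150 at 8057 in crn-3 against 16443 in cle40-2 and AT1G23720 at 4550 against 9666, both of them annotated as extensin-like. AT5G06630 and EXT10 are direct neighbours, as are AT4G08400 and AT4G08410, and between 43.8% and 67.9% of the windows of AT4G08400, AT4G08410 and AT5G06630 are unique, so reads can be split among such copies.

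Among root hair genes, PRP3 (AT3G62680), a proline-rich wall protein of hair cells, stood at 49.9 in crn-3 and 232 in cle40-2, with 49.3 in clv2-gabi and 114 in Col-0. PRP3 is the root hair member whose fall in crn-3 itself passed in the authors' deposited table, at 0.44 of Col-0 (adjusted p = 0.011), and its rise in cle40-2 also passed there, at 2.03-fold (adjusted p of 0). LRX1, a leucine-rich repeat extensin that shapes the hair wall, had 60.7 in crn-3 and 213 in cle40-2. EXPA7, a hair cell expansin, had 37.9 in crn-3 and 128 in cle40-2. ROPGEF4, an activator of the ROP GTPases that steer hair growth, had 41.2 in crn-3 and 101 in cle40-2, with 91 in Col-0, so that here Col-0 lay beside cle40-2. Of 21 root hair genes in the tables, 17 were compared, with a median change of -0.52. At least 2-fold lower in crn-3 were 4 and none was higher, against 1.33% lower over all genes compared. PRP3, EXPA7 and ROPGEF4 were under 50 in crn-3 and reached the minimum average only through cle40-2. The NADPH oxidase RHD2, which drives hair elongation, lay at 913 in crn-3 and 1703 in cle40-2 (change -0.90), and the hair growth regulator RSL4 at 58.5 and 101 (change -0.78), both short of 2-fold. The early regulator RHD6 was level, at 829 in crn-3 and 813 in cle40-2.

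Other hair and wall families were mixed. Of the RHS genes, 4 of 9 were compared and RHS19, RHS16 and RHS8 were at least 2-fold lower in crn-3, at 34.7, 36.9 and 64.0, against 130, 99 and 154 in cle40-2. RHS19 and RHS16 reached the minimum average only through cle40-2 and so had to differ. The xyloglucan-modifying enzyme gene XTH14 had 16.3 in crn-3 and 104 in cle40-2, and AGP3, an arabinogalactan peptide gene, 28.2 in crn-3 and 133 in cle40-2, both likewise above the minimum only through cle40-2. AGP3 was the 1 of 23 arabinogalactan peptide genes compared that was 2-fold apart, and the family's median change was -0.19. Of 67 class III peroxidase genes, 31 were compared and 10 were at least 2-fold lower in crn-3, PER64 of the endodermis among them, with a median change of -0.69. AT5G64100 lay at 115 in crn-3 and 397 in cle40-2, with 262 in Col-0, and AT3G49960 at 60.7 in crn-3 and 221 in cle40-2. Expansin genes had 2 of 17 members at least 2-fold lower, EXPA7 and EXPA8, and XTH genes 2 of 13, XTH14 and XTH30. Of 21 genes of the lipid-transfer type, 3 were lower and 1 higher; the most abundant of the lower ones, AT5G46900, lay at 1144 in crn-3 and 2695 in cle40-2, with 2488 in Col-0. Of 19 aquaporin genes PIP2E was at least 2-fold lower, at 167 in crn-3 and 497 in cle40-2. Beside these family counts stand 0.787% higher and 1.33% lower over all genes compared, so a single such member does not mark a family.

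**Figure D2:**
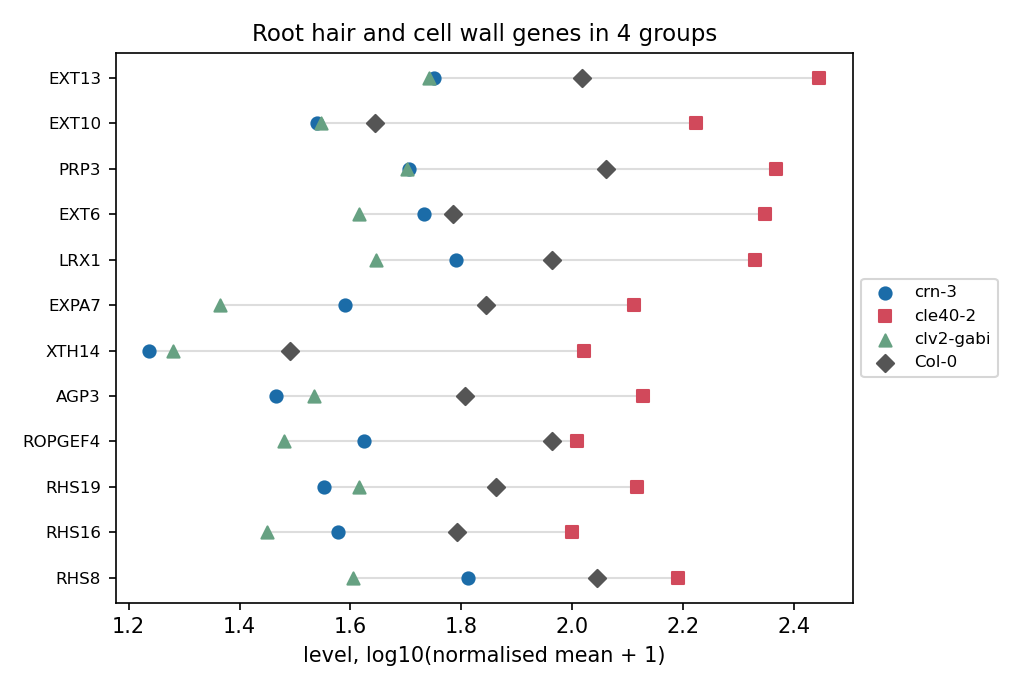
Levels of 12 root hair and cell wall genes in crn-3, cle40-2, clv2-gabi and Col-0, as log10 of the normalised group mean plus 1 on the horizontal axis; each symbol is 1 group mean and the grey line joins the lowest and highest. In all 12, cle40-2 is highest and Col-0 lies between it and the pair of crn-3 and clv2-gabi.

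Genes that set hair and non-hair identity did not share this direction. TRY, an inhibitor of hair-free fate in the root epidermis pathway, stood at 69.4 in crn-3 and 34 in cle40-2, and was the 1 of 11 epidermal cell fate genes at least 2-fold higher. Over all genes compared, 0.787% were 2-fold higher. TRY reached the minimum average only through crn-3, and its change of 1.01 dropped to 0.85 with a pseudocount of 10. GL2, which represses hair formation in non-hair cells, lay at 921 in crn-3 and 637 in cle40-2 (change 0.53), GL3 at 646 and 465, and WER at 1241 and 956. In 10 of the 11 genes the change was above 0, against 8245 of 15892 genes compared, with a median of 0.28. The samples are bulk root tips, in which fewer cells of a type and less RNA per cell cannot be told apart.

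Several Casparian strip genes were at least 2-fold lower in crn-3, while SCR and SHR, the regulators that specify the endodermis, were level. The endodermis is the inner cell layer that seals the root with a lignin band, the Casparian strip, built by CASP membrane proteins, the peroxidase PER64 and the dirigent protein ESB1 under the transcription factor MYB36. CASP1 (AT2G36100, chromosome 2, 15159591 to 15160799) had a level of 45.5 in crn-3, against 198 in cle40-2, 36.2 in clv2-gabi and 60 in Col-0. CASP2 (AT3G11550) had 19.5 in crn-3 and 98 in cle40-2, and PER64 (AT5G42180) had 37.9 in crn-3 and 157 in cle40-2. For all 3, cle40-2 stood above the other groups. In the authors' deposited tables CASP1 had a fold change over Col-0 of 0.76 in crn-3 (adjusted p of 1) and 3.27 in cle40-2 (adjusted p of 0). ESB1, whose span overlaps that of AT2G28671, sat on the 2-fold line at 169 in crn-3 and 340 in cle40-2, and with a pseudocount of 10 its change was -0.97. MYB36 lay at 150 and 279 (change -0.89). SCR lay at 2287 in crn-3 and 2348 in cle40-2, and SHR at 1264 and 1205. Of 12 list members 10 were compared, with a median change of -0.95. At least 2-fold lower were 5 and none was higher, against 1.33% lower over all genes compared. CASP1, CASP2 and PER64 were under 50 in crn-3 and reached the minimum average only through cle40-2.

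Dirigent genes, which guide lignin coupling, had 12 of 26 members compared and 5 at least 2-fold lower, none higher. The share of lower genes over all genes compared was 1.33%. AT2G39430 lay at 34.7 in crn-3 and 183 in cle40-2, AT3G55230 at 35.8 and 160, and AT3G24020 at 53.1 and 188. ESB1 and AT4G13580, at 41.2 in crn-3 and 129 in cle40-2, were the other lower members. AT2G39430, AT3G55230 and AT4G13580 reached the minimum average only through cle40-2. The median over the 12 was -0.56, but at averages of at least 200 the 5 members left, ESB1 among them, had a median of 0.28. Suberin genes, which coat the endodermis later, were divided. ASFT, a feruloyl transferase, was lower at 26.0 in crn-3 and 76 in cle40-2. FAR5, a fatty acid reductase, was higher at 225 in crn-3 and 101 in cle40-2, and so was the suberin transporter gene ABCG2, at 116 in crn-3 and 49 in cle40-2. Those 3 were the 2-fold members among 6 compared. ASFT reached the minimum average only through cle40-2, and ABCG2 only through crn-3.

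The 15 genes with the largest changes to lower levels in crn-3 included photosynthesis genes that were low in every group but cle40-2. LHB1B1, LHCB2.1, LHB1B2, CAB3, GAPB and LHCB3 were among them. LHB1B1, a light-harvesting protein gene, was at 1.08 in crn-3, 578 in cle40-2, 5.03 in clv2-gabi and 1 in Col-0. LHCB2.1 was listed at 0 in crn-3 and at 256 in cle40-2. CAB3 had 23.8 in crn-3 and 299 in cle40-2, and LHCB3 had 17.3 and 150. RCA, the Rubisco activase gene, was not among the 15 and had 30.3 in crn-3 and 179 in cle40-2. These genes have close copies, and 76.5% of the windows of LHCB2.1 and 86.3% of those of LHB1B1 are unique. Summed over all 48 nuclear photosynthesis genes in the tables, the level was 1610 in crn-3, 4895 in cle40-2, 2054 in clv2-gabi and 1583 in Col-0. Of the 48, 25 were compared and 17 were at least 2-fold lower in crn-3, none higher, against 1.33% lower over all genes compared. Most of these 17 were under 50 in crn-3, reached the minimum average only through cle40-2 and so had to be lower in crn-3. LHCB6 and PSAF did not follow: LHCB6 lay at 164 in crn-3 and 178 in cle40-2, PSAF at 75.9 and 71.

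Seed storage genes showed the same contrast. CRU3, a cruciferin, was at 16.3 in crn-3, 383 in cle40-2, 2.01 in clv2-gabi and listed at 0 in Col-0. CRA1 was listed at 0 in crn-3 and at 67 in cle40-2, CRU2 at 0 and 48, and BGLU19 lay at 1.08 and 66, all 3 under the minimum average. The other 8 of the 12 seed storage genes were at 0 to 2 in both mutants, the SESA albumins at 0 among them.

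**Figure D3:**
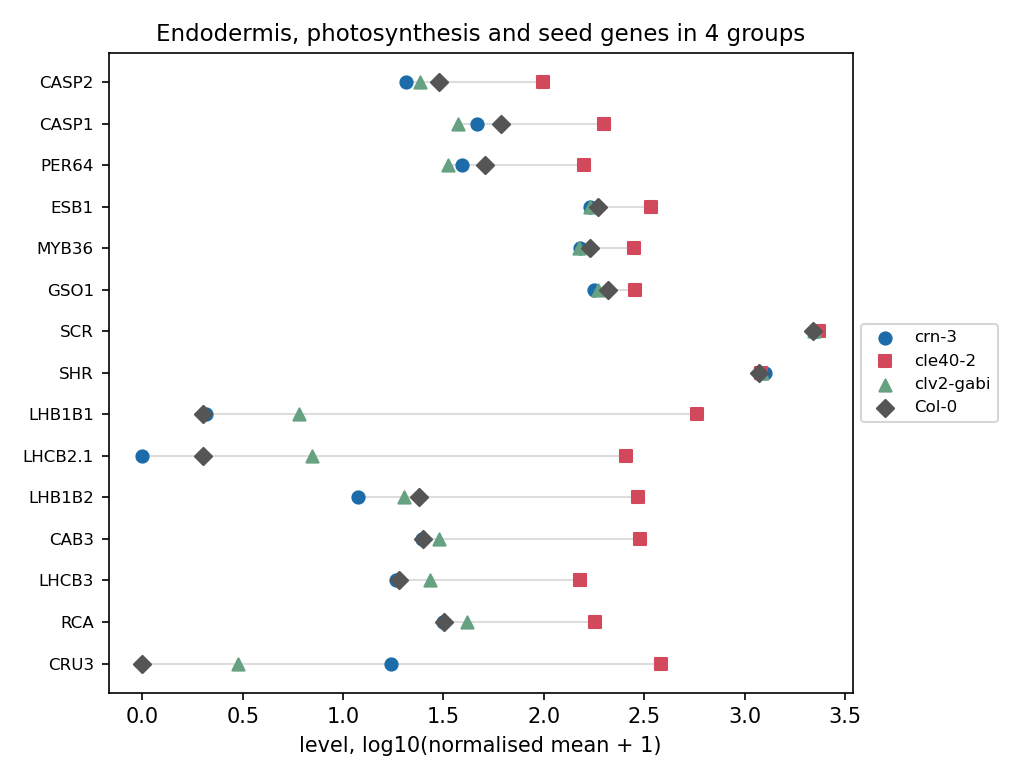
Levels of 8 endodermis genes, 6 photosynthesis genes and the seed storage gene CRU3 in crn-3, cle40-2, clv2-gabi and Col-0, as log10 of the normalised group mean plus 1. CASP1, CASP2, PER64 and the photosynthesis genes are highest in cle40-2, while SCR and SHR lie at the same place in all 4 groups.

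A few genes of the response to DNA damage, PARG2, GMI1, NAC103 and NAC044, were at least 2-fold lower in crn-3 than in cle40-2, and none of the other members compared was. In plants the transcription factor SOG1 turns on repair genes and, through NAC044 and its relatives, halts the cell cycle when DNA breaks, and its target sites hold CTT and AAG a set distance apart. This list was drawn up after several of its genes had been seen among the lowest, so its count is a description. PARG2 (AT2G31865, chromosome 2, 13546544 to 13549571), a poly(ADP-ribose) glycohydrolase gene, stood at 24.9 in crn-3, 190 in cle40-2, 33.2 in clv2-gabi and 24 in Col-0, which makes crn-3 7.37-fold lower than cle40-2. PARG2 reached the minimum average only through cle40-2 and so had to be lower in crn-3. GMI1, a repair protein gene, had 156 in crn-3 and 510 in cle40-2, with 128 in Col-0. NAC103 had 97.6 in crn-3 and 335 in cle40-2, and NAC044 had 95.4 and 229, with 51 in Col-0, so that crn-3 also lay above Col-0. In the authors' deposited tables NAC044 had a fold change over Col-0 of 1.88 in crn-3 (adjusted p = 0.247) and 4.52 in cle40-2 (adjusted p of 0).

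Of 26 members 24 were compared, 4 were at least 2-fold lower in crn-3, none higher, and 20 of 24 changes were below 0, against 7647 of 15892 genes. The median of the list was -0.24, and over all genes compared 1.33% were at least 2-fold lower. PARP2 lay at 364 in crn-3 and 631 in cle40-2, and SYN2, a cohesin subunit gene, at 619 and 816. The cell cycle inhibitor genes SMR5 and SMR7 were under the minimum average, at 2.17 and 2.17 in crn-3 and 21 and 34 in cle40-2. SOG1 itself was level, at 603 in crn-3 and 616 in cle40-2, and so was KU70, at 1222 and 1198. 
The form CTTNNNNNNNAAG was searched in the same promoter windows and is in capitals in the 2 lower members that held it.
PARG2 (chr2:13549572-13549821, - strand): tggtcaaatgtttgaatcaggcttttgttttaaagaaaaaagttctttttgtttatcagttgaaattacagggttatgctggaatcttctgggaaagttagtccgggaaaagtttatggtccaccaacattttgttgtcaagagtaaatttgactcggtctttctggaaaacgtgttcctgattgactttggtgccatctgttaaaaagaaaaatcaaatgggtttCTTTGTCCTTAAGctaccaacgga
NAC044 (chr3:228825-229074, + strand): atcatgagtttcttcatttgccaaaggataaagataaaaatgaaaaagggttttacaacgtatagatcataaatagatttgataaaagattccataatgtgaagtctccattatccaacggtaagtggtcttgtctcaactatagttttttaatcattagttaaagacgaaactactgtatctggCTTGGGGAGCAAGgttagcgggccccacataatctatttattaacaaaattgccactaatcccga
It occurred in 6 of 24 promoters of the list, in 2 of its 4 lower members, in 8.52% of all promoters read, in 10.0% of those of genes at least 2-fold lower and in 13.6% of those of genes at least 2-fold higher. No match was found in the windows of GMI1 and NAC103.

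**Figure D4:**
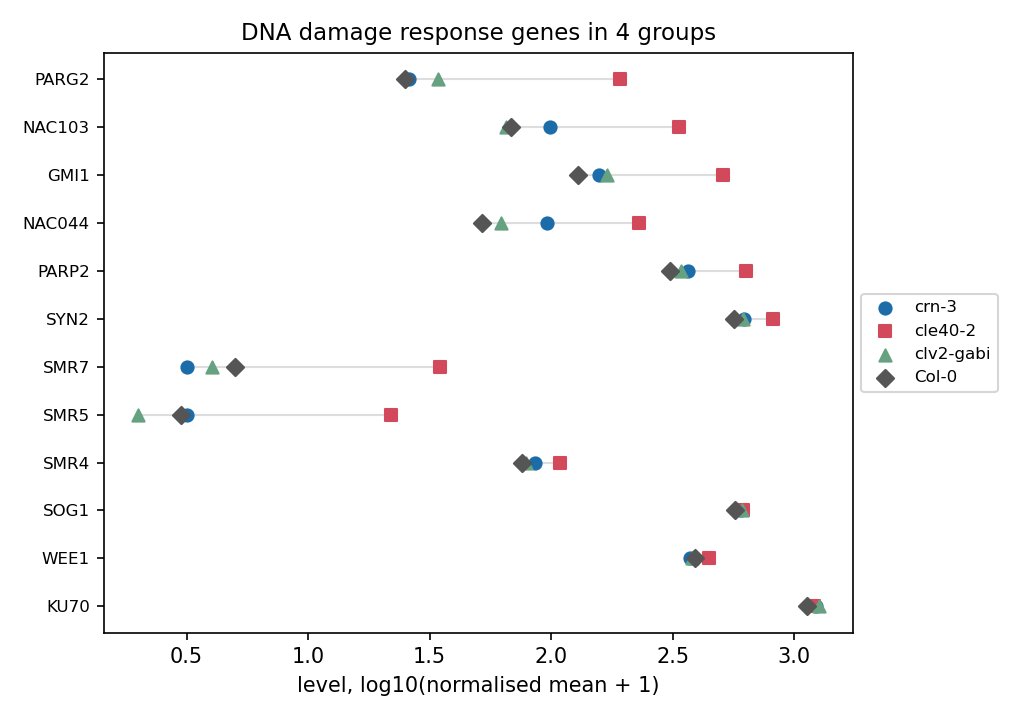
Levels of 12 genes of the DNA damage response in crn-3, cle40-2, clv2-gabi and Col-0, as log10 of the normalised group mean plus 1. cle40-2 is highest for PARG2, NAC103, GMI1, NAC044, SMR5 and SMR7, while SOG1 and KU70 hardly differ between groups.

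Among the genes higher in crn-3 than in cle40-2, some stood above Col-0 in crn-3 and others below Col-0 in cle40-2. AT1G24388, of unknown function, was at 165 in crn-3 and listed at 0 in the other 3 groups. MRD1 (AT1G53480, chromosome 1, 19963047 to 19964712) was at 377 in crn-3, 3 in cle40-2, 1160 in clv2-gabi and 3 in Col-0. HEI10, a meiotic crossover gene that overlaps MRD1, was at 619 in crn-3 and 218 in cle40-2, with 842 in clv2-gabi and 231 in Col-0. AT5G15360 was at 373 in crn-3, 11 in cle40-2, 13.1 in clv2-gabi and 5 in Col-0, and AT5G44440, a berberine bridge enzyme-like gene, at 1205 in crn-3 and 371 in cle40-2, with 379 in Col-0. AT1G24388, MRD1 and AT5G15360 reached the minimum average only through crn-3. The aspartyl protease gene AT5G19100 was at 622 in crn-3 and 127 in cle40-2, with 235 in Col-0 between them, and the acyltransferase gene AT5G47980 at 477 and 127, with 255 in Col-0. For these last 2, the authors' deposited tables give changes in opposite directions: AT5G19100 at 2.64-fold of Col-0 in crn-3 (adjusted p of 0) and 0.54 in cle40-2 (adjusted p = 0.001), AT5G47980 at 1.87-fold (adjusted p = 0.001) and 0.50 (adjusted p of 0).

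In other genes cle40-2 was the low group. PIN1AT, a prolyl isomerase gene, was at 5932 in crn-3, 458 in cle40-2, 6435 in clv2-gabi and 6888 in Col-0. ASPGB1, an asparaginase gene just before the loci left out on chromosome 3, was at 1830 in crn-3 and 335 in cle40-2, with 1707 in Col-0. SCPL9, a carboxypeptidase-like gene, was at 93.2 in crn-3 and 12 in cle40-2, and SR, the serine racemase gene, at 145 and 27. SBT1.3, a subtilase gene, was at 127 in crn-3 and 26 in cle40-2, the terpenoid synthase gene AT3G29430 at 88.9 and 21, and the defensin-like gene AT4G22214 at 1028 and 260. The nitrate transporter gene NRT1.8 was at 138 in crn-3 and 35 in cle40-2, the phosphotriesterase-like gene AT2G16760 at 168 and 47, and AT3G06435, of which 46.2% of windows are unique, at 144 and 34. SCPL9, SR, SBT1.3, AT3G29430, NRT1.8, AT2G16760 and AT3G06435 reached the minimum average only through crn-3 and so had to be lower in cle40-2. The marneral synthase gene MRN1, of a triterpene cluster, was at 754 in crn-3 and 233 in cle40-2, while CYP705A12, of the same cluster, was lower, at 139 in crn-3 and 327 in cle40-2.

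Other genes with the largest changes to lower levels in crn-3, whose values are not given above, were of several kinds, photosynthesis genes included. They too were low in every group but cle40-2. GA2OX2, which inactivates gibberellin, was at 6.50 in crn-3 and 144 in cle40-2, and the RING finger gene AT5G60250 at 17.3 and 341. The multicopper oxidase-like gene sks14 was listed at 0 in crn-3 and at 101 in cle40-2, AT5G55270 was at 5.42 and 150, and FBA1, a chloroplast aldolase gene, at 4.34 and 109. LHB1B2 was at 10.8 in crn-3 and 295 in cle40-2, and GAPB, of carbon fixation, at 13.0 and 131. AT3G28580 lay at 8.67 in crn-3 and 102 in cle40-2, WRKY48 at 8.67 and 97, and AT4G22960 at 27.1 and 213. All genes named so far in this paragraph reached the minimum average only through cle40-2 and so had to be lower in crn-3. A different pattern was seen for RABH1e, a Rab GTPase gene, at 185 in crn-3, 497 in cle40-2, 467 in clv2-gabi and 625 in Col-0: here crn-3 was the low group.

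Stem cell regulators and the receptors of CLE peptides were close to level between the mutants. AGL42, a MADS-box gene active in the quiescent centre, was the exception, at 225 in crn-3, 68 in cle40-2, 299 in clv2-gabi and 196 in Col-0. In the authors' deposited tables AGL42 had a fold change over Col-0 of 1.15 in crn-3 (adjusted p of 1) and 0.35 in cle40-2 (adjusted p of 0). PLT2 lay at 703 in crn-3 and 601 in cle40-2, BBM at 397 and 346, PLT3 at 2024 and 2463, and UPB1, which sets the switch from division to growth, at 227 and 336. WOX5, the quiescent centre regulator, was at 13.0 in crn-3 and 27 in cle40-2, under the minimum average. Of the 9 CLE receptor genes none differed 2-fold: CLV1 lay at 135 in crn-3 and 112 in cle40-2, BAM1 at 4021 and 3768, BAM2 at 1475 and 1466, BAM3 at 437 and 448, ACR4 at 306 and 330, RPK2 at 474 and 430, and TDR at 125 and 88. Over all genes compared, 0.787% were 2-fold higher and 1.33% lower, so a list of 9 with none lies near that share. Of the CLE peptide genes 7 of 30 were compared, and CLE5 was lower, at 44.4 in crn-3 and 121 in cle40-2. CLE5 reached the minimum average only through cle40-2.

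Root cap (11 compared), xylem (7), phloem (5), mitosis (19), S phase (13), low oxygen (6), nitrogen (12), phosphate (9) and iron (8) genes had no member at least 2-fold apart. The same held for 8 cytokinin response and breakdown genes, 25 auxin response genes and 7 auxin carriers. Over all genes compared, 0.787% were 2-fold higher and 1.33% lower, so short lists without such a member lie near the share of all genes. Root cap genes had a median change of 0.20 and mitotic genes one of 0.12. Of 259 ribosomal protein genes 1 was lower, with a median of 0.08. The lower one was AT2G07675, with 0 of its 329 windows unique in the genome, so its level cannot be assigned to that locus.

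**Figure D5:**
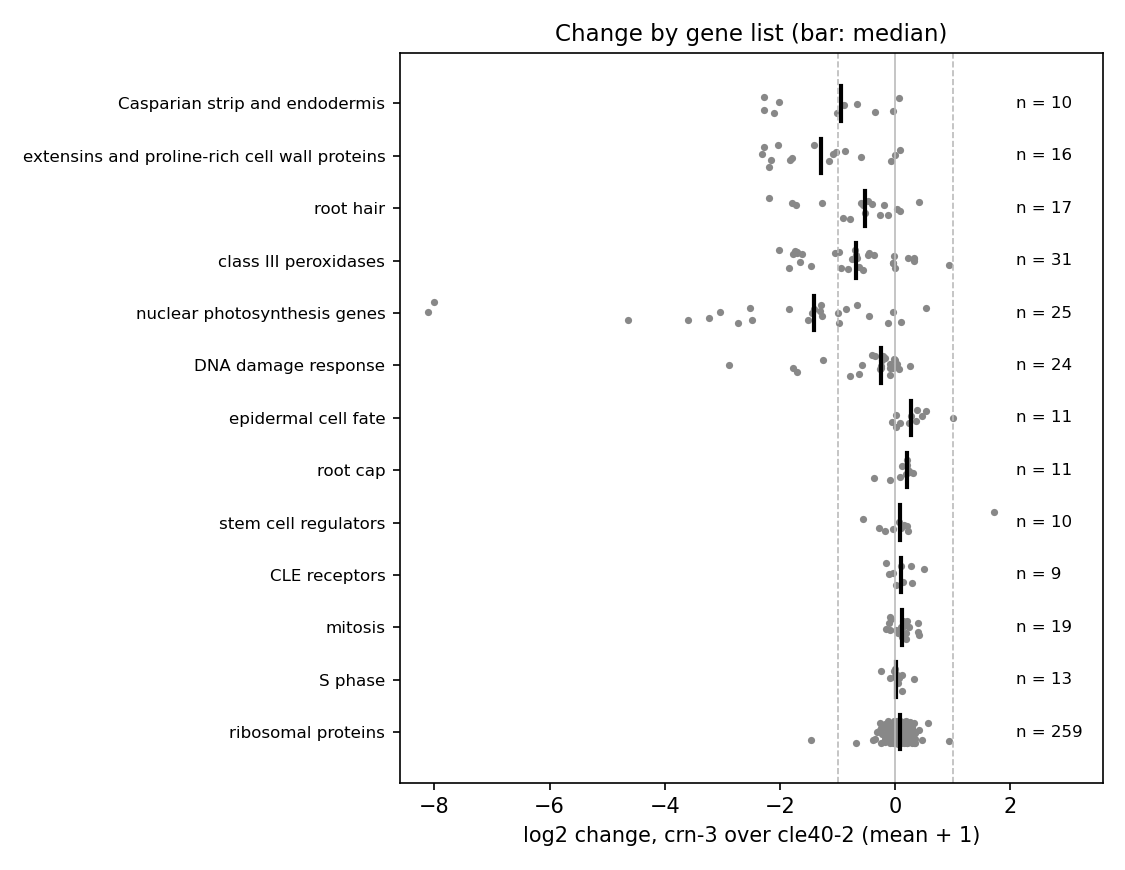
Change between crn-3 and cle40-2 (log2, horizontal axis) of each compared member of 13 gene lists; points are genes, jittered up and down, black bars are medians and dashed lines mark 2-fold. Extensin, photosynthesis, Casparian strip, peroxidase and root hair genes extend to the left (lower in crn-3), while cell cycle, receptor and ribosomal protein genes stay near 0.

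The clv2-gabi means placed these genes on the side of crn-3. Of the 125 genes higher in crn-3 than in cle40-2, the clv2-gabi level lay nearer to crn-3 in 113 (90.4%), and of the 212 lower genes in 206 (97.2%), against 71.3% of all genes compared. The Col-0 level lay nearer to crn-3 in 112 of 125 (89.6%) and in 168 of 212 (79.2%), against 61.7% of all. In the authors' deposited tables, 10 of the 125 genes were higher in crn-3 than in Col-0 (background 0.151%) and 100 were lower in cle40-2 (background 2.44%), and of the 212 genes 15 were lower in crn-3 (0.334%) and 170 higher in cle40-2 (2.52%). The same libraries chose the genes and the comparisons share the Col-0 libraries, so these counts are not independent evidence.

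By position, 1.89% of compared genes on chromosome 1 differed 2-fold, 2.90% on chromosome 2, 1.91% on chromosome 3, 1.88% on chromosome 4 and 2.21% on chromosome 5. Within 1 Mb of CLE40 or CRN on chromosome 5, 7 of 407 genes did (1.72%), 5 higher and 2 lower. Of neighbouring compared genes, 22 pairs were both past 2-fold, 16 with both lower, 2 with both higher and 4 opposed. Overlapping genes are among them: AT2G41640, a glycosyltransferase gene, was at 540 in crn-3 and 2625 in cle40-2, while AT2G41650, whose span it overlaps, was at 2991 in crn-3 and 987 in cle40-2. No source used here tells whether reads were counted by strand, so reads of such pairs cannot be told apart.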

How the data were processed

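RNA of root tips was sequenced in 11 libraries. Per the submitters' processing notes, CASAVA 1.8.2, DESeq and the build TAIR10 were used. No source used here gives the aligner, the counting tool, its strand setting or the annotation. The deposited tables, 3 in all, each set a mutant against Col-0. Their group values were treated as scores: the authors' means of normalised read counts, printed as whole numbers, to which no count model applies. The fold change is the ratio of these means as the authors deposited it. The authors' adjusted p-values have 3 decimals, so that 0 stands for any smaller value, and NA stays NA. The samples of a group may be technical replicates, so these p-values measure only the spread between them. Depth per sample is unknown.

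The design foresaw values per sample; the tables hold means, so the planned test was replaced by a description. The crn-3 column was scaled by 1.08 and clv2-gabi by 1.01 on Col-0 sums, and a pseudocount of 1, a minimum average of 50 and a 2-fold threshold were used with Python 3.11.15 and pandas 2.3.3. The loci AT3G16170 to AT3G17185 were left out. Genes named are the mutated genes, the 15 largest changes per direction, up to 5 members per list past 2-fold, stem cell regulators, receptors and markers; others were chosen after their values were seen. The members and lists were chosen with earlier results of these data known; the DNA damage and RHS lists and some family patterns were set after looking. A list dropped 13 symbols the annotation lacks. Of the identifiers, 28008 matched TAIR10.1, which gave names, positions and promoters, and 487 did not. Uniqueness is the share of 50-base transcript windows found once. The script was tested on simulated data. The results of some listed genes are not reported here, though list counts include them.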

Additional observations from a re-analysis of the deposited data

How the results depend on the processing

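Neither value per sample nor replicate number is in the tables: no replicate could be left out, and no paired analysis was possible because the columns are group means. The number of genes at least 2-fold higher in crn-3 than in cle40-2, 125, became 263 at an average of at least 10, 48 at 200 and 415 with no minimum; the number lower, 212, became 580, 49 and 926. Under a pseudocount of 10, other scalings, the ratio of the authors' deposited fold changes, the kept chromosome 3 loci, the authors' adjusted p as a second criterion, or genes with at least 90% unique windows (added after seeing the data), the counts ran from 99 to 127 and from 180 to 240. The share of higher genes with clv2-gabi nearer to crn-3, 90.4%, was 81.0% at an average of 10 and 74.9% with no minimum, and that with Col-0 nearer, 89.6%, was 80.6% and 75.4%. For lower genes the clv2-gabi share was 89.7% with no minimum and the Col-0 share 69.4% at 200. The cause was not tested. Of the 88 named genes followed through these settings, none that was at least 2-fold apart changed direction. The other named genes, those described as level among them, were not followed, and changes close to 0 can change sign. The median of dirigent genes, -0.56, was 0.28 at an average of at least 200, and list medians close to 0 also changed sign: AUX/IAA and ARF, CLE receptor, S phase, phloem, phosphate, suberin, cytokinin and xylem genes. A minimum of 200 leaves 3 photosynthesis genes, with a median change of -0.45, against -1.41 at 50. The pseudocount of 10 moved 14 of 88 named genes by over 1.5 times. No scaling moved the median of all genes by over 0.1 on the log2 scale. Means near the minimum of 50 limit what can be read, and with 2 crn-3 libraries 1 library can set a mean.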

Other observations

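Several families not described above differed by less than 2-fold in most members. Of the plasma membrane proton pump genes, whose products acidify the cell wall space, 8 of 11 were compared and none differed 2-fold. Over all genes compared, 0.787% were 2-fold higher and 1.33% lower. HA2, the most abundant of them, lay at 19786 in crn-3 and 30274 in cle40-2, with 21059 in Col-0 (change -0.61), and HA3 at 108 in crn-3 and 206 in cle40-2 (change -0.92). HA8 lay the other way, at 619 in crn-3 and 453 in cle40-2. The nitrate transceptor gene NRT1.1 was at 1369 in crn-3 and 2157 in cle40-2, with 1358 in Col-0. The sucrose synthase gene SUS1 was at 260 in crn-3 and 367 in cle40-2, and SUS4, under the minimum average, at 1.08 and 48. The acid phosphatase gene PS2 was at 345 in crn-3 and 183 in cle40-2, with 369 in Col-0.

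Of 29 glutathione transferase genes compared, 1 per direction was past 2-fold, against 0.787% higher and 1.33% lower over all genes compared. GSTU4 was lower at 107 in crn-3 and 229 in cle40-2, while GSTU20 was higher at 144 in crn-3 and 61 in cle40-2. Of 37 UDP-glycosyltransferase genes UGT84A1 was lower, at 157 in crn-3 and 368 in cle40-2. AT1G10400, annotated to that superfamily but not in the list, was higher, at 220 in crn-3 and 99 in cle40-2. GASA1, of a family of gibberellin-regulated peptides, was lower at 280 in crn-3 and 671 in cle40-2, with 542 in Col-0, and LBD26, a LOB domain gene, was higher at 70.5 in crn-3 and 30 in cle40-2. LBD26 reached the minimum average only through crn-3.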
